A study of Mus musculus with 6 samples.

Results

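The integrated stress response and the unfolded protein response were followed through 9 genes, Atf4, Atf3, Ddit3, Trib3, Chac1, Asns, Hspa5, Xbp1 and Herpud1, in mouse embryonic stem cells (mESCs) grown without a self-renewal cytokine, with leukemia inhibitory factor (LIF) or with oncostatin M (OSM). They were chosen by symbol, as known parts of these pathways, with earlier results of these data known, so their counts below are not blind to the data. All 9 were found among the 28584 gene symbols, and all 9 were among the 18556 genes that were tested, those with at least 1 TPM (transcripts scaled for gene length and for the library total) in at least 2 libraries.

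The integrated stress response begins with kinases that phosphorylate the translation factor eIF2alpha when amino acids run short, when unfolded proteins collect in the endoplasmic reticulum (ER), or on viral RNA or heme loss. Bulk translation then slows, while the mRNA of the transcription factor ATF4 is translated better, and ATF4 switches on genes of amino acid supply, redox balance and, under lasting stress, cell death. The unfolded protein response adds the ER sensors IRE1, which splices Xbp1 mRNA, and ATF6, which together raise ER chaperones and the machinery that removes misfolded proteins, so that a rise of ATF4 targets can occur with or without a rise of ER chaperones.

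The study asked whether OSM can hold mESCs in the naive state in the way that LIF does. The cells came from 1 ESC line, derived from a C57BL/6 x 129S6 blastocyst. Before the groups were split, the line spent 5 passages with serum and LIF on MEF feeder cells inactivated with mitomycin C. The cells of all 3 groups then grew in a basic medium of knockout DMEM with 20% FBS, non-essential amino acids, beta-mercaptoethanol, L-glutamine, penicillin and streptomycin. That medium was used alone for -LIF-ESCs, with LIF at 1000 U/mL for LIF-ESCs and with OSM for OSM-ESCs. Poly(A) RNA was sequenced at passage 10, which the study counts from the transfer to these media. Each group had 2 libraries, which the study describes as biological replicates without saying whether they were separate cultures, so the p-values measure the spread between these libraries of 1 line.

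The reads recovered from the TPM values came to between 20713249 and 28996208 per library, and mitochondrially encoded genes took 3.5% to 3.9% of TPM. All 8 stem cell markers checked (Pou5f1, Sox2, Nanog, Zfp42, Esrrb, Klf4, Dppa3 and Tdgf1) were at 1 TPM or more in each library. Their summed level was 2373 to 2402 TPM in -LIF-ESCs, 3958 to 4047 TPM in LIF-ESCs and 3627 to 3711 TPM in OSM-ESCs, but Nanog (mean 433 TPM in -LIF-ESCs, 290 and 261 TPM in the cytokine groups) and Dppa3 (104 against 38.7 and 41.6 TPM) were higher in -LIF-ESCs. For Nanog this is the reverse of the study, which reports it higher with both cytokines in RNA-seq and as protein. The reason for this conflict was not tested. Other cell type markers moved with the groups as well. The summed level of 10 feeder fibroblast markers was 354 to 363 TPM in -LIF-ESCs, 573 to 581 TPM in LIF-ESCs and 764 to 781 TPM in OSM-ESCs, with 6 of the 10 at 1 TPM or more in -LIF-ESCs and 10 of 10 in the other groups. Sparc, at a mean of 316 TPM in -LIF-ESCs and 220 and 269 TPM in the others, made up most of the -LIF-ESC sum, and the other 9 markers summed to 39.8 to 44.7 TPM in -LIF-ESCs, 356 to 357 TPM in LIF-ESCs and 500.0 to 506 TPM in OSM-ESCs. Krt8, Krt18 and Krt19, keratins of simple epithelium, summed to 2301 to 2322 TPM in -LIF-ESCs against 32.5 to 34.6 TPM in LIF-ESCs and 42.9 to 47.5 TPM in OSM-ESCs. The 4 primitive streak and mesoderm markers summed to 69.6 to 72.7 TPM in -LIF-ESCs and to at most 3.84 TPM in the cytokine groups, and the 5 primitive endoderm markers to 2.81 to 3.11 TPM against 10.6 to 16.4 TPM. Of the endoderm markers, Foxa2 went the other way (mean 0.829 TPM in -LIF-ESCs, 0.552 TPM with LIF and 0.557 TPM with OSM). Sox17 had means of 0.359, 1.08 and 0.406 TPM in the same order. The part of these cells in the results below was not tested, and in bulk RNA fewer cells of a type and less RNA per cell cannot be told apart.

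Several of the 9 genes carry, near their RefSeq start, short sequences that textbook knowledge links to these pathways. They are shown because the factors of the integrated stress response and of the unfolded protein response are known to bind different ones. In RefSeq promoter windows of the GRCm38.p6 build (250 bases before the start to 50 after it), both strands were searched for 4 motifs. These were the core TGATGNAA of the C/EBP-ATF response element (CARE, the site of ATF4 with a C/EBP partner), the core TGACGTG of the unfolded protein response element (UPRE, a sequence that also resembles cAMP response elements), the ER stress response element (ERSE, CCAAT, any 9 bases, then CCACG) and ERSE-II (ATTGG, any base, then CCACG). Each of the 9 genes had a window. The RefSeq start of Atf3 lies 34706 bases downstream of the start of the GENCODE gene whose coordinates are given below, so its window is inside that gene, and for the other 8 genes the starts lie within 120 bases of each other. The stretches below are read 5' to 3' on the strand of the gene, with the match in capitals, and a CARE on the opposite strand shows as its complement.
Atf3 CARE: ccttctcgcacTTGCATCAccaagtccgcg
Trib3 CARE: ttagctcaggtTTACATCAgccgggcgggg
Chac1 CARE: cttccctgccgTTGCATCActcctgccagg
Asns CARE: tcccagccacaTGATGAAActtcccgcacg
Herpud1 CARE: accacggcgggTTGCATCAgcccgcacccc
Herpud1 ERSE-II: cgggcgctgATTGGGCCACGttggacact
Hspa5 ERSE: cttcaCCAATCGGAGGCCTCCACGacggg
Hspa5 UPRE: gggcgtagcaaTGACGTGagttgcggagg

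The stretches lie at chr1:191183425-191183454 (Atf3, minus strand), chr2:152344028-152344057 (Trib3, minus strand), chr2:119351038-119351067 (Chac1, plus strand) and chr6:7693214-7693243 (Asns, minus strand). Those of Herpud1 lie at chr8:94386306-94386335 (CARE) and chr8:94386368-94386396 (ERSE-II), and those of Hspa5 at chr2:34772020-34772048 (ERSE) and chr2:34771922-34771950 (UPRE), all on the plus strand. Of the 32851 promoter windows, 3.97% held a CARE core, 2.01% the UPRE core, 0.119% an ERSE and 0.0365% an ERSE-II. CARE was found in 5 of the 9 members and ERSE in 1, and the windows of Atf4, Ddit3 and Xbp1 held none of these letters. A match describes the letters in the window and is no evidence of binding, and its absence says nothing of the factor.

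**Figure D1:**
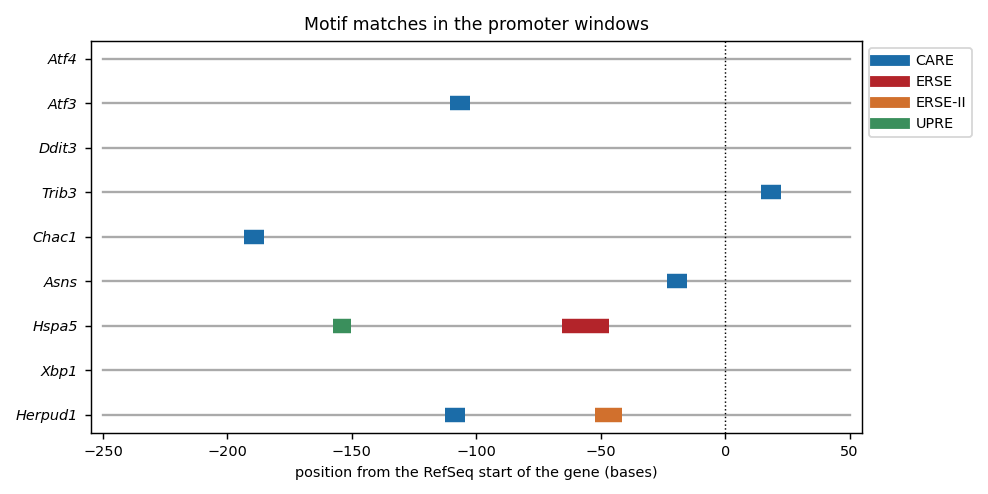
Positions of the motif matches (coloured bars, one colour per motif) in the promoter windows of the 9 genes (grey lines), in bases from the RefSeq start of the gene. The CARE cores of Atf3 and Herpud1 began at positions -110 and -112, that of Chac1 at -193 and that of Asns at -23. That of Trib3 began after the RefSeq start, at 15. The RefSeq start of Trib3 lies upstream of its GENCODE start, and the core lies between these starts, so before the GENCODE start. The ERSE of Hspa5 began at -65 and the ERSE-II of Herpud1 at -52.

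Atf4, the transcription factor at the centre of the integrated stress response, was lowest without cytokine. Its level was 83.6 and 90.7 TPM in the -LIF-ESC libraries, 495 and 498 TPM in the LIF-ESC libraries and 478 and 470 TPM in the OSM-ESC libraries. Both cytokine groups lay far above -LIF-ESCs, with no overlap. The mean rose from 87.1 ± 5.01 TPM (SD, n = 2) to 497 ± 1.83 TPM with LIF, 5.7 times as high, and to 474 ± 5.66 TPM with OSM, 5.44 times as high. On the scale of log2(TPM + 1), used for all tests, this was a log2 fold change of 2.50 (SE 0.045, limma adjusted p = 3.19e-06) with LIF and 2.43 (SE 0.045, adjusted p = 2.99e-06) with OSM. Atf4 lies on chr15:80255184-80257541, plus strand, and the values count its RNA, not its translation, the step at which this gene is best known to be controlled.

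The 2 genes with the greatest differences were targets of ATF4. Chac1, which encodes an enzyme that breaks down glutathione, was at 3.99 and 4.86 TPM in -LIF-ESCs, 277 and 279 TPM in LIF-ESCs and 285 and 278 TPM in OSM-ESCs. In reads this was 74 in each -LIF-ESC library and between 4125 and 5527 in the others. The mean was 62.8 times the -LIF-ESC mean with LIF and 63.7 times with OSM. The log2 fold changes, which the added 1 TPM makes smaller for a gene this low, were 5.69 (SE 0.078, adjusted p = 1.85e-06) and 5.71 (SE 0.078, adjusted p = 1.64e-06). Counting alone gives the log2 ratios, without the added 1 TPM, an error of 0.12. This is above the SE of 0.078, so the SE and p-values may be too small. By log2 fold change Chac1 (chr2:119351229-119354381, plus strand) ranked 9 from the highest of the 18556 genes with LIF and 11 with OSM.

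Trib3, a pseudokinase that is induced by ATF4 and DDIT3 and binds ATF4, was at 6.94 and 8.04 TPM in -LIF-ESCs, 287 and 288 TPM in LIF-ESCs and 272 and 271 TPM in OSM-ESCs. As for Chac1, both cytokine groups lay far above -LIF-ESCs, with no overlap. The mean was 38.4 times as high with LIF (log2 fold change 5.09, SE 0.065, adjusted p = 1.54e-06) and 36.2 times as high with OSM (5.01, SE 0.065, adjusted p = 1.55e-06). Trib3 (chr2:152337422-152344032, minus strand) ranked 16 and 22 from the highest.

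Ddit3 encodes CHOP, a C/EBP family factor downstream of ATF4 that is tied to cell death under ER stress. It was at 18.6 and 19.3 TPM in -LIF-ESCs, 69.5 and 77.5 TPM in LIF-ESCs and 89.1 and 86.2 TPM in OSM-ESCs. The 3 groups did not overlap, and OSM-ESCs were the highest. The log2 fold change against -LIF-ESCs was 1.90 (SE 0.062, adjusted p = 1.32e-05) with LIF, a ratio of 3.87, and 2.15 (SE 0.062, adjusted p = 8.87e-06) with OSM, a ratio of 4.62. Ddit3 (chr10:127290774-127296288, plus strand) overlaps Mars, the methionyl-tRNA synthetase gene on the opposite strand, and other gene models, over 186 exon bases in all, and reads there cannot be assigned without strand. Mars itself was at 111 TPM in -LIF-ESCs, 223 TPM in LIF-ESCs and 214 TPM in OSM-ESCs.

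Atf3, a further bZIP factor of the pathway and a common early response gene, had a smaller fold change. It was at 27.7 and 26.6 TPM in -LIF-ESCs, 37.5 and 39.1 TPM in LIF-ESCs and 35.4 and 36.6 TPM in OSM-ESCs. The cytokine libraries were all above the -LIF-ESC libraries. The ratio was 1.41 with LIF (log2 fold change 0.48, SE 0.048, adjusted p = 0.000475) and 1.32 with OSM (0.39, SE 0.048, adjusted p = 0.000995). Atf3 lies on chr1:191170296-191218039, minus strand.

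Asns, asparagine synthetase and the classical amino acid response gene, was at 271 and 277 TPM in -LIF-ESCs, 458 and 456 TPM in LIF-ESCs and 444 and 424 TPM in OSM-ESCs. Unlike Chac1 and Trib3, it was already well expressed without cytokine. The ratio was 1.67 with LIF (log2 fold change 0.74, SE 0.035, adjusted p = 3.69e-05) and 1.59 with OSM (0.66, SE 0.035, adjusted p = 4.94e-05). Asns lies on chr6:7675169-7693254, minus strand.

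**Figure D2:**
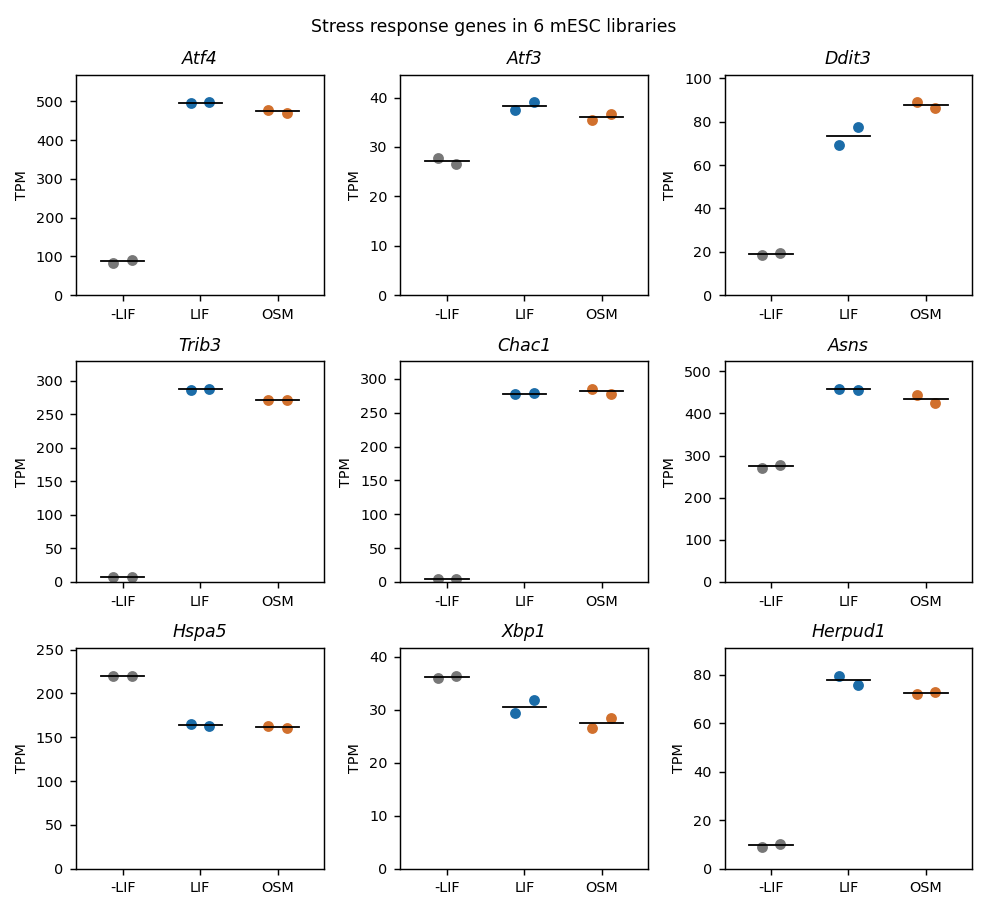
TPM of the 9 genes in each of the 6 libraries (points), with the mean of the 2 libraries of a group as a black bar and each vertical axis starting at 0. Atf4, Ddit3, Trib3, Chac1 and Herpud1 stood several-fold higher with either cytokine, Atf3 and Asns were higher by 1.32 to 1.67 times, and Hspa5 and Xbp1 were lower with either cytokine.

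Of the genes tied to the ER, Herpud1 rose and Hspa5 and Xbp1 fell. Herpud1, an ER membrane protein of ER-associated degradation, was at 9.05 and 10.3 TPM in -LIF-ESCs, 79.5 and 75.7 TPM in LIF-ESCs and 72.2 and 72.9 TPM in OSM-ESCs, with no overlap between the cytokine groups and -LIF-ESCs. The ratio was 8.03 with LIF (log2 fold change 2.88, SE 0.066, adjusted p = 5.77e-06) and 7.51 with OSM (2.79, SE 0.066, adjusted p = 5.61e-06). Its window was the only one of the 9 to hold a CARE core together with an ERSE-II, as printed above. Herpud1 lies on chr8:94386438-94395377, plus strand.

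Hspa5 encodes BiP, the main ER chaperone of the HSP70 family, which holds the ER stress sensors inactive. It was at 220 TPM in both -LIF-ESC libraries, 165 and 163 TPM in LIF-ESCs and 163 and 160 TPM in OSM-ESCs. The -LIF-ESC libraries were the highest, opposite to Atf4 and Herpud1. With LIF it fell by 0.42 on the log2 scale (SE 0.03, adjusted p = 0.00013), to 0.744 of the -LIF-ESC mean. With OSM it fell by 0.44 (SE 0.03, adjusted p = 0.000111), to 0.735 of that mean. Hspa5 lies on chr2:34771970-34777547, plus strand, and was the one member whose window held an ERSE.

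Xbp1, whose mRNA IRE1 splices into the form that encodes the active factor, was at 36.0 and 36.4 TPM in -LIF-ESCs, 29.4 and 31.8 TPM in LIF-ESCs and 26.5 and 28.5 TPM in OSM-ESCs. It was lower in all 4 cytokine libraries. It fell by 0.24 on the log2 scale with LIF (SE 0.06, adjusted p = 0.0157) and by 0.39 with OSM (SE 0.06, adjusted p = 0.00251). The LIF difference did not pass in 3 of the 6 fits with a library left out, at -0.25 (adjusted p = 0.0586) without -LIF-ESC replicate 1, -0.23 (adjusted p = 0.0697) without -LIF-ESC replicate 2 and -0.18 (adjusted p = 0.0797) without LIF-ESC replicate 1. It passed without LIF-ESC replicate 2 (-0.29, adjusted p = 0.0227) and without either OSM-ESC replicate. Values per gene do not separate spliced from unspliced Xbp1. The gene lies on chr11:5520659-5525893, plus strand.

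Counted together, 7 of the 9 genes were higher and 2 lower at an adjusted p under 0.05 in LIF-ESCs against -LIF-ESCs, where 42.2% of all genes tested were higher and 25.9% lower. With the further condition of a log2 fold change of at least 1, 5 of the 9 were higher (Atf4, Ddit3, Trib3, Chac1 and Herpud1), against 13.3% of all genes. In OSM-ESCs against -LIF-ESCs the counts were also 7 higher, 2 lower and 5 past the fold limit, where 42.9% of all genes were higher, 25.4% lower and 14.2% past it. The median log2 fold change of the 9 genes was 1.90 with LIF and 2.15 with OSM, and that of all genes 0.165 and 0.182. Both comparisons use the same -LIF-ESC libraries and so are not independent of each other. TPM sums to the same total in every library, and rescaling by the median ratio over genes moved the median of all genes to 0.012 and 0.013. After that rescaling Atf4 still differed by 2.33 and 2.25 on the log2 scale, Chac1 by 5.54 in both comparisons, Atf3 by 0.31 and 0.21, Hspa5 by -0.60 and -0.63 and Xbp1 by -0.41 and -0.57, and all 9 genes kept their direction and passed.

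**Figure D3:**
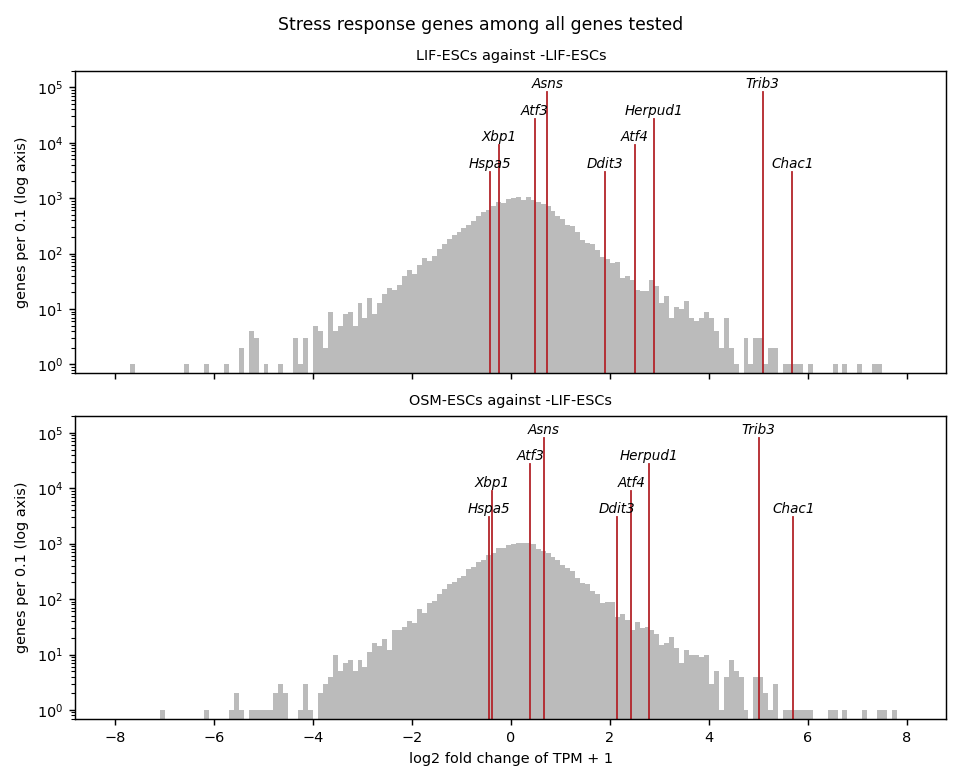
Histogram of the log2 fold change of TPM + 1 for the 18556 genes tested (grey, genes per 0.1 on a log axis) against -LIF-ESCs, with the 9 genes as red lines. Chac1 (5.69 and 5.71) and Trib3 (5.09 and 5.01) lay in the far right tail, and Hspa5 (-0.42 and -0.44) and Xbp1 (-0.24 and -0.39) within the bulk of the genes.

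Between the cytokines the log2 differences of the 9 genes ran from -0.15 to 0.25. At an adjusted p under 0.05, 0 of the 9 were higher and 0 lower in OSM-ESCs against LIF-ESCs by limma, where 0.463% of all genes were higher and 0.129% lower. At an unadjusted p under 0.05, 1 of the 9 (Ddit3) and 2838 of all genes differed. The largest difference was that of Ddit3, 1.19 times as high with OSM (log2 difference 0.25, 95% confidence interval 0.10 to 0.41, adjusted p = 0.171). Ddit3 passed with limma's voom on the recovered reads (0.26, adjusted p = 0.00645), where 1 of the 9 genes was higher and 0 lower. That fit passed far more of all genes, 972 higher and 473 lower, against 86 and 24 in the main fit. In no other of the 9 alternatives that keep all libraries did Ddit3 pass. Over the 15 alternatives its log2 difference ran from 0.18 to 0.33.

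For the other members the difference was given an interval as well. Atf4 differed by -0.07 (95% interval -0.18 to 0.05, adjusted p = 0.552), Trib3 by -0.08 (-0.25 to 0.08, adjusted p = 0.608) and Chac1 by 0.02 (-0.18 to 0.22, adjusted p = 0.941). The OSM-ESC and LIF-ESC libraries overlapped for Chac1 and Hspa5 and were apart for the other 7 genes. With so few libraries per group, such a separation often arises by chance, as an exact permutation test cannot go below p = 0.333. No share of all genes is set beside this count, so the count is no result about the members. Xbp1 was next after Ddit3 in size, at -0.15 (-0.30 to 0.00, adjusted p = 0.333). Herpud1 and Atf3 both differed by -0.09 and Asns by -0.08, with adjusted p between 0.391 and 0.569, and Hspa5 by -0.02 (adjusted p = 0.831).

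**Figure D4:**
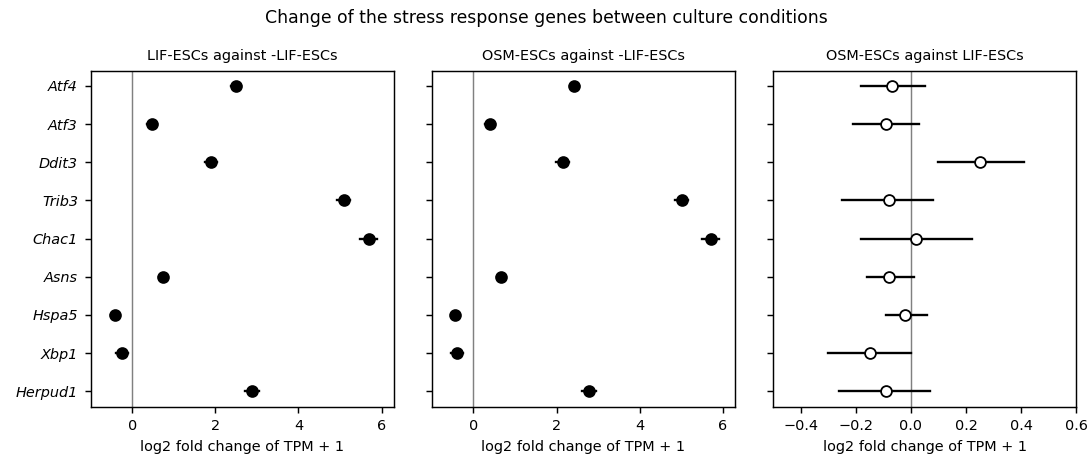
Log2 fold change of TPM + 1 of the 9 genes in the 3 comparisons (points) with the 95% confidence interval (lines), filled where the adjusted p was under 0.05. The third panel has a narrower axis. All points are filled in the comparisons against -LIF-ESCs and all are open in OSM-ESCs against LIF-ESCs, where the differences ran from -0.15 (Xbp1) to 0.25 (Ddit3).

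The further genes of these pathways were taken from lists set up by role. Of all genes tested, 42.2% were higher and 25.9% lower with LIF, and 42.9% and 25.4% with OSM. Their median log2 fold changes were 0.165 and 0.182, and the list counts below are to be read beside these values. In numbers, 7822 genes were higher and 4809 lower with LIF, and 7958 and 4722 with OSM. After median ratio rescaling these became 6391 and 6171 with LIF, and 6374 and 6165 with OSM. Higher and lower genes were then close in number, and rescaled list counts are to be read beside that. Of 30 genes commonly listed as ATF4 targets, outside the 9 members, 28 were higher and 2 lower with LIF, and 28 higher and 2 lower with OSM, with a median log2 fold change of 1.85 and 1.84. Nupr1, a small stress-induced chromatin protein, was at 2.81 and 2.39 TPM in -LIF-ESCs, 117 and 115 TPM in LIF-ESCs and 109 and 105 TPM in OSM-ESCs, a rise of 5.02 (adjusted p = 1.56e-06) and 4.91 (adjusted p = 1.6e-06) on the log2 scale. Cth, the transsulfuration enzyme that makes cysteine, went from a mean of 21.7 TPM to 284 TPM with LIF and 261 TPM with OSM (3.65 and 3.53). Aldh1l2, a mitochondrial folate enzyme, went from 0.304 TPM to 15.0 and 15.3 TPM (3.62 and 3.64).

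The other genes of the list named next were grouped after their values were seen. Of the serine and one-carbon enzymes besides Aldh1l2, Mthfd2 rose by 2.88 with LIF and 2.80 with OSM, Shmt2 by 1.58 and 1.53, Psph by 1.06 and 1.01, Psat1 by 0.65 in both and Phgdh by 0.40 and 0.43. Of the proline enzymes, Aldh18a1 rose by 2.49 and 2.42 and Pycr1 by 0.68 and 0.55. The amino acid transporters and their subunits other than Slc7a11 rose by between 1.16 (Slc38a2) and 2.87 (Slc6a9) with LIF and between 1.08 and 2.87 (Slc38a2 and Slc6a9) with OSM. Adjusted p values of these genes ran up to 0.000488. The 2 lower genes were Ddit4 and Slc7a11. Ddit4, an inhibitor of mTORC1, was at 496 and 521 TPM in -LIF-ESCs, 297 and 299 TPM in LIF-ESCs and 244 and 236 TPM in OSM-ESCs, and fell by 0.77 (adjusted p = 4.02e-05) and 1.08 (adjusted p = 1.47e-05) on the log2 scale. Slc7a11, the cystine transporter subunit of system xc-, fell by 0.68 (adjusted p = 0.00255) with LIF and 0.45 (adjusted p = 0.0122) with OSM, from a mean of 4.83 TPM to 2.64 and 3.26 TPM.

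The aminoacyl-tRNA synthetases, which charge tRNAs with amino acids, were counted in a pair of lists. All 12 of the cytosolic synthetases commonly linked to ATF4 were higher with LIF and with OSM, with medians of 1.24 and 1.23, and 11 and 10 of them passed the fold limit. Nars, for asparagine, led with mean levels of 202 TPM in -LIF-ESCs, 690 TPM in LIF-ESCs and 674 TPM in OSM-ESCs (1.77, adjusted p = 6.5e-06, and 1.73, adjusted p = 6.05e-06), followed by Sars (1.61 and 1.56) and Cars (1.48 and 1.46). Of 8 other cytosolic synthetases, 4 were higher and 2 lower in each comparison, with a median of 0.08 in both, and 3 higher and 4 lower after median ratio rescaling. Among these Kars, for lysine, was at 317 TPM in both -LIF-ESC libraries, 143 and 144 TPM in LIF-ESCs and 151 and 148 TPM in OSM-ESCs, and fell by 1.14 (adjusted p = 7.58e-06) and 1.08 (adjusted p = 7.94e-06). The difference between these lists was not tested. CARE cores lay in 5 of the 8 linked synthetases that had a window, and in 0 of 5 of the others. In the ATF4 target list they lay in 7 of the 25 genes with a window, among them Slc7a11, which fell. Of the bZIP genes counted below, 1 of 7 with a window held one. Over all genes with a window the share was 4.51%.

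Upstream of Atf4, the 16 eIF2alpha kinases, phosphatase subunits and eIF2B genes had a median log2 fold change of 0.18 in both comparisons. This is near the medians of all genes tested (0.165 and 0.182), so it is no result about the list. With LIF 8 were higher and 2 lower, and with OSM 10 were higher and 2 lower. After rescaling these became 7 and 5 with LIF and 5 and 4 with OSM. Ppp1r15a, which encodes GADD34, the stress-induced subunit that reverses eIF2alpha phosphorylation, was at 28.1 TPM in both -LIF-ESC libraries and between 78.4 and 80.2 TPM in the others (1.46, adjusted p = 6.28e-06 with LIF and 5.86e-06 with OSM). Eif2ak2, the kinase activated by double-stranded RNA, rose by 1.14 (adjusted p = 0.000137) and 1.45 (adjusted p = 5.9e-05). Of the other kinases of the family, Eif2ak3, the ER kinase PERK, rose by 0.53 and 0.44 (adjusted p = 0.00639 and 0.0126), and Eif2ak4, the amino acid sensor GCN2, differed by -0.03 and -0.06 (adjusted p = 0.647 and 0.413).

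The 9 bZIP genes that encode partners or relatives of ATF4 were mostly higher with it, with 8 higher and 1 lower in each comparison and medians of 1.42 and 1.46. Fosl1 was at 0.983 and 1.39 TPM in -LIF-ESCs, 17.0 and 15.2 TPM in LIF-ESCs and 25.1 and 22.5 TPM in OSM-ESCs (2.97, adjusted p = 2.36e-05, and 3.51, adjusted p = 1.42e-05). Atf5 and Cebpg are also in the ATF4 target list, as is Ppp1r15a, so the counts of these lists are not separate. Atf5 rose by 2.54 (adjusted p = 3.66e-06) and 2.62 (adjusted p = 3.04e-06). Cebpb rose by 2.18 and 2.01 (adjusted p = 0.000459 and 0.000603), with libraries that spread from 62.4 to 89.6 TPM in LIF-ESCs and from 59.1 to 75.4 TPM in OSM-ESCs. Jun was the exception, with 111 and 113 TPM in -LIF-ESCs and 32.9 to 40.9 TPM in the cytokine libraries, a fall of 1.73 (adjusted p = 2.14e-05) and 1.52 (adjusted p = 2.92e-05).

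The ER arm of the pathway did not move as one. Of the 8 ER stress sensors and their proteases that were tested, 4 were higher and 1 lower with LIF, and 6 higher and 1 lower with OSM, with medians of 0.43 and 0.54. After median ratio rescaling the counts were 4 and 2 with LIF and 4 and 1 with OSM. The sensor Atf6 rose by 1.15 (adjusted p = 2.99e-05) and 1.13 (adjusted p = 3.04e-05), from 11.0 TPM to 25.6 and 25.2 TPM, and Mbtps2, the site-2 protease that releases ATF6, by 1.27 (adjusted p = 6.1e-05) and 1.20 (adjusted p = 7.12e-05). Mbtps1, the site-1 protease, fell by 0.75 (adjusted p = 0.00025) and 0.82 (adjusted p = 0.000186). Ern1, which encodes IRE1, differed by 0.24 (adjusted p = 0.085) with LIF and by 0.32 (adjusted p = 0.0346) with OSM.

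Of 19 ER chaperones and folding enzymes, 5 were higher and 6 lower with LIF and 5 higher and 8 lower with OSM, with medians of 0.03 and -0.03. After median ratio rescaling 3 were higher and 11 lower in each comparison, with medians of -0.14 and -0.22. Pdia6 and P4hb, protein disulfide isomerases, stood beside Hspa5 among those that fell. Pdia6 went from a mean of 182 TPM to 99.7 TPM with LIF and 95.2 TPM with OSM (-0.86 and -0.93, adjusted p = 4.25e-05 and 3.29e-05), and P4hb at 418 and 429 TPM against 229 to 257 TPM (-0.85 and -0.76, adjusted p = 4.31e-05 and 6.08e-05). The co-chaperones Dnajc3 (1.12 and 1.10, adjusted p = 3.27e-05 and 3.24e-05) and Dnajb9 (1.07 and 1.01, adjusted p = 0.000439 and 0.00053) rose, as did Dnajb11 (0.60 and 0.72, adjusted p = 0.000119 and 6.18e-05). An ERSE lay in 7 of the 16 genes of this list that had a window, among them Pdia6, which fell, and Dnajc3, which rose.

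Of 19 genes of ER-associated degradation, 11 were higher and 4 lower with LIF and 12 higher and 4 lower with OSM, with medians of 0.27 and 0.29. After rescaling the counts were 8 and 7 with LIF and 9 and 7 with OSM. Over all genes, higher and lower were then close in number as well, so the rescaled counts are no result about the list. Os9, a lectin that delivers glycoproteins for degradation, went from 11.9 and 11.0 TPM to 35.6 and 36.4 TPM with LIF and 40.3 and 39.2 TPM with OSM (1.57, adjusted p = 1.45e-05, and 1.71, adjusted p = 1.09e-05). Derl3 rose by 1.28 and 1.25 and Ufd1 by 0.98 and 1.02, with adjusted p up to 0.000986. Edem2, a mannose-trimming protein of this pathway, fell by 1.19 (adjusted p = 3.98e-05) and 1.23 (adjusted p = 3.51e-05). Of 18 genes of ER entry and translocation, 9 were higher and 4 lower in each comparison, or 6 and 7 after rescaling, and 0 passed the fold limit. The counts before rescaling are close to the shares of all genes. After it higher and lower were close in number, as over all genes, so neither count is a result about the list.

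**Figure D5:**
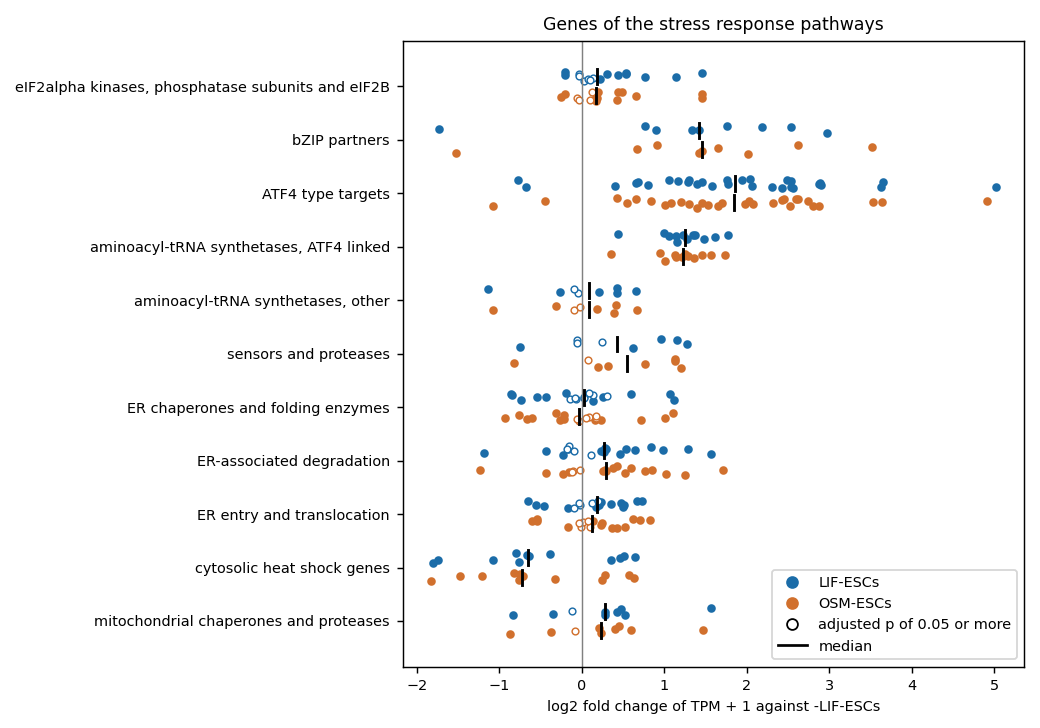
Log2 fold change of TPM + 1 against -LIF-ESCs for the genes of each pathway list (points, blue for LIF-ESCs and orange for OSM-ESCs, open where the adjusted p was 0.05 or more), with the median as a black bar. The ATF4 type targets (medians 1.85 and 1.84), the bZIP partners (1.42 and 1.46) and the ATF4 linked synthetases (1.24 and 1.23) lay to the right of 0, while the ER chaperones (0.03 and -0.03) lay around it and the cytosolic heat shock genes (-0.66 and -0.73) to its left.

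As a contrast, chaperones outside the ER were also counted. Of 12 cytosolic heat shock genes, 4 were higher and 8 lower with LIF and with OSM, with medians of -0.66 and -0.73, and after rescaling 4 and 8 with LIF and 2 and 8 with OSM. Dnajb1 was at 67.6 and 63.2 TPM in -LIF-ESCs and 27.1 to 31.6 TPM in the cytokine libraries (-1.08 and -1.21, adjusted p = 6.56e-05 and 4.48e-05). Hspa1a and Hspa1b, near-identical copies whose reads cannot be assigned with certainty, fell by 1.75 and 1.81 with LIF and by 1.83 and 1.48 with OSM, while Hspb1 rose by 0.64 and 0.57, all with adjusted p up to 0.000815. Of 9 mitochondrial chaperones and proteases, 6 were higher and 2 lower in each comparison, or 5 and 3 with LIF and 4 and 3 with OSM after rescaling. Hspa9, the mitochondrial HSP70, rose from 358 TPM to 1069 and 993 TPM (1.57 and 1.47, adjusted p = 7.97e-06 and 8.79e-06), and Hspd1, the mitochondrial HSP60, fell by 0.83 and 0.87 (adjusted p = 5.93e-05 and 4.99e-05).

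When the cytokines were compared, 1 of the 157 different genes of these lists passed (0.637%), near the 0.593% of all genes tested, so that the count is no result about the lists. It was Ddit4, which was lower with OSM by a log2 difference of -0.31 (adjusted p = 0.0494, 240 ± 5.53 against 298 ± 1.57 TPM, SD, n = 2). It passed in 3 of 15 alternatives, with adjusted p from 3.88e-06 to 0.274.

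The genes whose pattern over the 6 libraries was most like that of Atf4, by the Euclidean distance of log2(TPM + 1) after centring, were Aldh18a1 (distance 0.0852), Gfod1 (0.117) and 5430416N02Rik (0.127). Aldh18a1 had mean levels of 26.4, 152 and 146 TPM in -LIF-ESCs, LIF-ESCs and OSM-ESCs, and is also in the target list. Those most like Trib3 were Grb10 (0.171), an adaptor of insulin receptor signalling, Nupr1 (0.272) and Gm44928 (0.295). Grb10 had mean levels of 3.16, 151 and 132 TPM, and Gm44928 was listed at 0 in -LIF-ESCs and at 36.5 and 36.7 TPM in the others.

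Over all genes tested, those with a motif in the window were set beside the members. Of 302 genes with a CARE core, 53.6% were higher and 24.2% lower with LIF, and 53.6% and 23.8% with OSM, with medians of 0.35 and 0.36. Of the 11174 genes tested that had any window, 45.9% were higher and 27.8% lower with LIF and 46.7% and 27.4% with OSM, with medians of 0.17 and 0.19. Of 23 genes with an ERSE, 34.8% were higher and 47.8% lower with LIF and 30.4% and 43.5% with OSM, with medians of -0.09 and -0.13. The other ER elements did not share this fall. Of 10 genes with an ERSE-II, 7 were higher and 2 lower with LIF, and 7 and 3 with OSM. Their medians were 0.63 and 0.75. Of 354 genes with the UPRE core, 48.9% were higher and 27.4% lower with LIF, and 49.4% and 26.6% with OSM. Their medians were 0.19 and 0.2. These are shares and counts of genes, which are not replicates, and no test was made of them.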

How the data were processed

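RNA-seq was made from 6 mESC libraries. The authors aligned reads to mm10 with HISAT2, assigned them to genes with featureCounts (the submitters' notes also name Trimmomatic) and deposited TPM values, 1 column per library. Annotation version, strand setting and multi-mapping rule are not given in the sources used here. Groups came from the labels, and no column of the table was left unused.

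The TPM values, after adding 1 and taking log2, entered 1 limma fit (version 3.58.1, R 4.3.3; lmFit, then eBayes with a variance trend) of 18556 genes in 3 groups. It had 3 residual degrees of freedom, raised to 5.3 by the prior. P-values were adjusted by Benjamini-Hochberg over all genes tested. An exact permutation test of 2 against 2 libraries cannot go below p = 0.333 and was not used. The authors' count model takes read counts rather than TPM. It was not run on the rebuilt reads described next either, to which only voom was applied. Steps were tested on simulated data.

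Read numbers were rebuilt from TPM, 1 step size per library and exon lengths of GENCODE M21 (GRCm38), in which 99.4% of symbols matched. Of the values, 95.3% were whole within 0.02 of a read, and all values of the 9 members were. Where a symbol had several gene models, as Ddit3 did, the model giving whole reads was used. Motifs were searched with Python 3.11.15 in RefSeq promoter windows.

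All 9 members are named. From each list, those named are up to 3 genes with the highest and 3 with the lowest log2 fold change among those that passed against -LIF-ESCs, any that passed between cytokines, and the 3 genes nearest to Atf4 and to Trib3. Genes named beyond this rule (Eif2ak3, Eif2ak4, Ern1, Mars and the serine, one-carbon, proline and transport genes) were chosen after their values were seen. The members and lists were chosen with earlier results of these data known. As alternatives, the pseudocount was set to 0.1, the filter was dropped or raised to 5 TPM, the variance trend was left out, and the fits used only the groups compared, a replicate block, median ratio rescaling, removal of 37 mitochondrial genes, voom on recovered reads, and each library left out.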

Additional observations from a re-analysis of the deposited data

Results flagged for a closer look

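The response of Ddit4 to OSM differed from its response to LIF by -0.31 on the log2 scale (limma adjusted p = 0.0494), with both OSM-ESC libraries below both LIF-ESC libraries. It was picked out because the test of the difference itself passed, which held in 3 of 15 alternatives. As 1 of 157 list genes, it is about the share of all genes that passed (0.593%).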

How the results depend on the processing

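Against -LIF-ESCs, the member counts of 7 higher and 2 lower held in the 9 alternatives that keep all libraries, the replicate block (7 and 2) included, and no member's log2 fold change changed sign. With 1 library left out, the number of lower members in LIF-ESCs against -LIF-ESCs ran from 1 to 2 (1 without -LIF-ESC replicate 1, -LIF-ESC replicate 2 or LIF-ESC replicate 1, each through Xbp1). In those fits the lone library is taken to vary like the other groups. In OSM-ESCs against LIF-ESCs, 1 member was higher with voom on recovered reads, and 0 with the others. The counts over all genes in that comparison, 86 higher and 24 lower, became 52 and 10 with a pseudocount of 0.1, 149 and 38 with 5 TPM, 8 and 4 without a trend, 972 and 473 with voom, 0 and 0 with only the groups compared or with the replicate block, and at most 1 and 0 with a library left out. The cause was not tested. Replicate numbers did not pair the libraries (correlations of deviations -0.043, -0.023 and 0.027). Chac1 rests on 74 reads in each -LIF-ESC library, so its fold carries the largest counting error of the 9. With LIF, the counting error without the added 1 TPM was also above the limma SE for Trib3 (0.0811 against 0.065) and Herpud1 (0.0716 against 0.066). The same held for Atf3 (0.0556 against 0.048) and Ddit3 (0.0633 against 0.062). The scales differ, as the SE includes the added 1 TPM, which makes it smaller, most for genes of low TPM. For Ddit3 and Herpud1 the gap is small, so it does not show that their SE is too small. The SE and p-values of Trib3 and Atf3 may be too small. Counts of small lists also moved by more than 1.5 times, mostly with median ratio rescaling (values given beside the lists), and many of them with voom on recovered reads. With the replicate block, lower degradation genes with OSM went from 4 to 2. With a filter of 5 TPM, lower ATF4 targets went from 2 to 1 in both comparisons. With a library left out, lower ER chaperones with OSM went from 8 to 5 (without -LIF-ESC replicate 2) or 4 (without OSM-ESC replicate 2), higher ER chaperones with LIF from 5 to 3 (without -LIF-ESC replicate 2 or LIF-ESC replicate 1) and lower degradation genes from 4 to 2 (without either -LIF-ESC replicate in both comparisons, without LIF-ESC replicate 1 with LIF and without OSM-ESC replicate 2 with OSM). Lower kinase and eIF2B genes went from 2 to 1 (without -LIF-ESC replicate 2 in both comparisons, and without either LIF-ESC replicate with LIF), and lower ATF4 targets with OSM from 2 to 1 (without -LIF-ESC replicate 1 or OSM-ESC replicate 2).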
